A study of Mus musculus with 3 samples.

Results

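Genes of the adrenal gland, the gonad and the germ cells were followed in RNA of the embryonic mouse kidney, where they serve as signs of neighbouring tissue. The set held 10 genes, chosen by name: the germ cell genes Ddx4, Dppa3 and Dazl, the transcriptional regulators Nr5a1, Nr0b1 and Lhx9, and the steroid synthesis genes Star, Cyp11a1, Hsd3b1 and Cyp17a1. An oligo counted for a gene where the platform annotation gave it exactly 1 symbol. All 10 genes were measured, each by 1 oligo with a value on all 3 arrays, so 0 were missing. They stood among 19635 genes tested in all.

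The kidney, the adrenal cortex and the gonad arise next to each other in the embryo, from the intermediate mesoderm and the coelomic epithelium that covers it. A shared adrenogonadal primordium that expresses Nr5a1 splits into adrenal cortex and gonad, and both organs then make steroids: Star moves cholesterol into the mitochondrion, Cyp11a1 cuts its side chain to give pregnenolone, and the Hsd3b enzymes and Cyp17a1 carry the product further. Primordial germ cells travel from the hindgut through its mesentery to the gonadal ridges, which lie beside the mesonephros. Tissue dissected from the kidney region can therefore carry cells of any of these neighbours.

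The study set 13.5 dpc (days post coitum) kidney directly against 10.5 dpc metanephric mesenchyme, the mesenchyme from which nephrons form, on 3 2-colour arrays with no common reference. Both tissues were microdissected from CD1 mouse embryos, with the sexes pooled, and their RNA was amplified. Each array gave 1 deposited log2 ratio per oligo. The labels mention a dye swap, and the numerator of the ratio and the dye of each RNA are not given in the sources used here. Values are therefore given as positive or negative, with the sign of the ratio as deposited, and neither sign is read as higher in the kidney or in the mesenchyme. A ratio holds no level, so whether either tissue expressed a given marker at all could not be checked. In tissue RNA, fewer cells of a type and less RNA per cell cannot be told apart.

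Across 19635 genes, arrays 1 and 2 had a Pearson correlation of 0.464, arrays 1 and 3 of 0.166 and arrays 2 and 3 of 0.162, a description across genes, which are not independent replicates. The median over all oligos lay between 0.0014 and 0.030, and between 21433 and 21477 oligos had a value on an array. The labels do not say whether separate dissections fed the arrays, so a p-value here covers the spread from array to array, which may be technical. Their number limits the precision: the smallest two-sided p of an exact sign-flip test of 1 gene is 0.25.

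The 10 genes did not lie together on 1 side. The germ cell helicase gene Ddx4 had the mean farthest from 0, on the negative side, and Hsd3b1, Nr5a1 and Cyp11a1 lay on the positive side on every array. Star, which acts in the same pathway just before Cyp11a1, lay on the negative side on every array. Of the 10, 0 passed limma at a Benjamini-Hochberg adjusted p of 0.05, a call made for 0.00509% of all genes. That share is 1 gene, which had the lowest mean of all, -6.64, with every array at the lowest ratio present, 0.01. At an unadjusted limma p under 0.05 there were 5 of the 10, against 16.8% of all genes. On the positive side these were 3, against 8.99% of all genes, and on the negative side 2, against 7.83%. The sign was the same on all 3 arrays for 7 of the 10, against 41.3% of all genes, 4 on the positive side (21.5% of all genes) and 3 on the negative (19.9%). A mean of at least 1 in size was held by 1 of the 10, Ddx4, against 5.33% of all genes. The median of the 10 means was 0.23, and that of all genes 0.0020. These shares describe 10 genes that were chosen with earlier results of these arrays known.

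**Figure D1:**
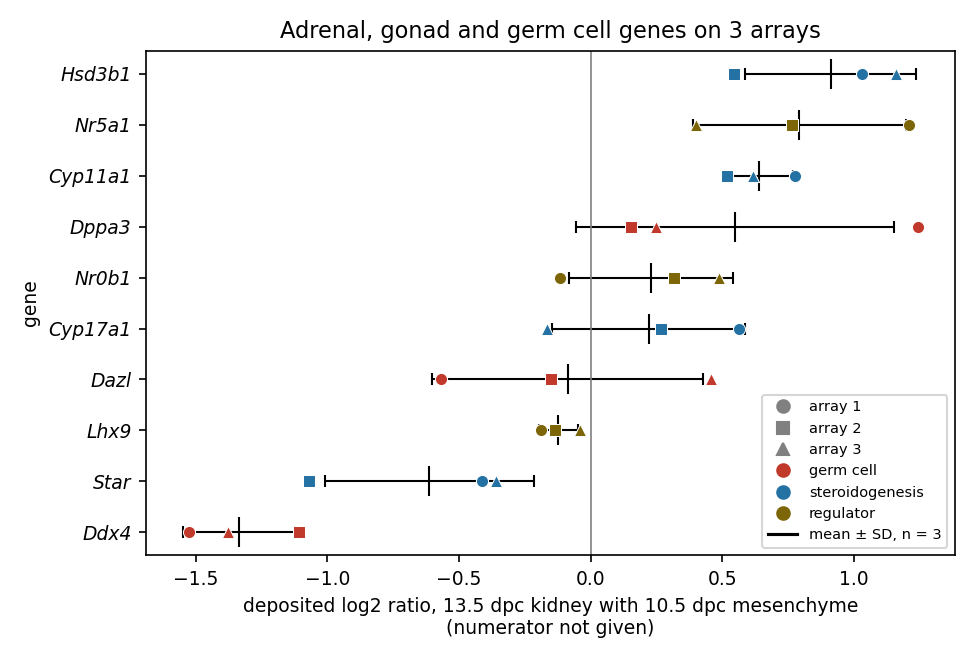
Deposited log2 ratio (x axis, log2 units) of each of the 10 genes (rows, ordered by mean) on arrays 1, 2 and 3 (circle, square, triangle), with the mean and SD of the 3 arrays in black and colours for the role of the gene. The 3 arrays of Ddx4 lie between -1.53 and -1.11, apart from every other gene, and those of Hsd3b1 between 0.55 and 1.16.

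Ddx4 encodes the germ cell RNA helicase known as vasa, used as a marker of germ cells once they reach the gonadal ridge. The log2 ratios on arrays 1, 2 and 3 were -1.53, -1.11 and -1.38. All 3 arrays lay beyond -1, and its highest array was below the lowest array of each of the other 9 genes. Beside this comparison within the set no share over all genes was taken. The mean was -1.34 ± 0.21 (SD, n = 3 arrays), a 2.53-fold difference, with a 95% confidence interval from -1.78 to -0.90 (limma, unadjusted p = 0.000819, adjusted p = 0.108). A mean at least that far from 0, on either side, was held by 2.23% of all genes. With each array left out in turn its mean ran from -1.45 to -1.24 and its unadjusted limma p from 0.00471 to 0.00693.

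The promoters of Ddx4 and Dazl are shown because both genes belong to a class that is known for CpG-dense promoters which are methylated in most body cells. Each window runs from 250 bases before to 50 after a start site in RefSeq (GRCm38.p6), is printed 5′ to 3′ on the strand of the gene, and has each CpG in capitals. The Ddx4 window is chr13:112652261-112652560 on the minus strand and the Dazl window chr17:50293571-50293870 on the minus strand.
Ddx4: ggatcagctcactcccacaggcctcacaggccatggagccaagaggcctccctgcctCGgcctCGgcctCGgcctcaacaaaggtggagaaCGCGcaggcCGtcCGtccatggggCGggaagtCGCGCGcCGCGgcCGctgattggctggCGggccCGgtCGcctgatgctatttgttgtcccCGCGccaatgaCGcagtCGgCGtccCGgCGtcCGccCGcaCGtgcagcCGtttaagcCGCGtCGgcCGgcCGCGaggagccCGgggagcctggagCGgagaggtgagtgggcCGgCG
Dazl: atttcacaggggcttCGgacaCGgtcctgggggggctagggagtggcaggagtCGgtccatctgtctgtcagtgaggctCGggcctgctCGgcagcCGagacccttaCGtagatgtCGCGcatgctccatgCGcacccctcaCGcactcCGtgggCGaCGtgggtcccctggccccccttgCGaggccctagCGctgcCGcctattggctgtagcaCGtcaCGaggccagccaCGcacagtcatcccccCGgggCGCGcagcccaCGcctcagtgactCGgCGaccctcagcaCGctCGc
The Ddx4 window holds 38 CpGs in 300 bases; of 32851 RefSeq promoter windows of that length, whose median is 7, 4.95% hold at least as many. The Dazl window holds 28, a number reached by 14.2% of them. These counts describe the sequence, and methylation was not measured.

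Dazl, an RNA-binding protein that licenses germ cells for gametogenesis, did not share the position of Ddx4. It had log2 ratios of -0.57, -0.15 and 0.46 on arrays 1, 2 and 3. The arrays lay on both sides of 0, with a mean of -0.088 ± 0.51 (SD, n = 3; limma adjusted p = 0.886). Without array 1 the mean turned to 0.15.

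Dppa3, also known as stella, marks primordial germ cells from their first appearance and is also expressed in pluripotent cells. Array 1 gave it a log2 ratio of 1.24, array 2 one of 0.15 and array 3 one of 0.25. All 3 were positive, and array 1 stood far above the other two. The mean was 0.55 ± 0.60 (SD, n = 3; limma adjusted p = 0.401), and 0.20 without array 1. The lowest array of Dppa3, at 0.15, lay above the highest of Ddx4, at -1.11. Ddx4 had the lowest mean of the set, and no share of such pairs over all genes was taken.

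Other germ cell genes also lay on both sides of 0. Of 44 genes listed for germ cells, 33 were tested, with a median of -0.025; 0 passed limma over all genes, and an unadjusted p under 0.05 was held by 2 positive and 3 negative genes. These are 15.2% of the list, near the 16.8% of all genes, so the list did not stand out by this count. Besides Ddx4 the negative ones were Lin28a, an RNA-binding protein of pluripotent and early embryonic cells, at -1.08 ± 0.53, and Rnf17, a tudor-domain protein of the germ line, at -0.48 ± 0.18 (mean log2 ratio ± SD, n = 3). The positive ones were Pum2, an RNA-binding protein of many cell types, at 1.18 ± 0.33, and Ifitm3, an early germ cell marker that other cells also express, at 0.84 ± 0.42. The number of listed genes at an unadjusted p under 0.05 was 10 without array 3 and 11 with array weights. Pou5f1, the pluripotency factor that primordial germ cells keep, stood at 0.30 ± 0.20, and the receptor Kit, through which these cells receive their survival signal, at 0.38 ± 0.086, and neither had an unadjusted p under 0.05. These genes do not stand for the list, in which 15 means were positive and 18 negative. Over all genes 50.3% of means were positive.

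Of the signals that guide germ cells, 12 genes were tested, with a median of 0.17, and 1 had an unadjusted limma p under 0.05 and 0 passed over all genes. That gene was Ackr3, a scavenger receptor for the chemokine Cxcl12, at 1.02 ± 0.33. The count of 1 is 8.33% of the list, below the 16.8% of all genes, so the list did not stand out by it. It was 2 without array 2 and 2 with array weights. Kitl, the ligand of Kit made by the cells around them, had -0.74, -0.17 and 0.65 on arrays 1, 2 and 3. Its arrays spanned 0, like those of Dazl.

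The 3 genes nearest to Ddx4 over the 3 arrays, among 14745 other named genes, were Pim1, Nkx2-4 and Spns1, at Euclidean distances of 0.105, 0.108 and 0.112 log2 units. Their means were -1.38, -1.31 and -1.30. With 3 arrays this is a description of numerical likeness.

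Among the regulators, Nr5a1 encodes steroidogenic factor 1, the nuclear receptor that adrenal cortex and gonad both need to form and that activates the steroid synthesis genes. Its log2 ratios on arrays 1, 2 and 3 were 1.21, 0.77 and 0.40. All 3 arrays were positive. The mean was 0.79 ± 0.41 (SD, n = 3), a 1.73-fold difference, with a 95% confidence interval from 0.22 to 1.36 (limma, unadjusted p = 0.0170, adjusted p = 0.206). The unadjusted p was 0.0833 without array 1 and 0.0685 without array 2.

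Nr0b1 encodes DAX-1, a nuclear receptor without the usual DNA-binding domain that represses the activity of Nr5a1. For this gene the log2 ratios were -0.12, 0.32 and 0.49 on arrays 1, 2 and 3. The arrays lay on both sides of 0, with a mean of 0.23 ± 0.31 (SD, n = 3; limma adjusted p = 0.589), which became 0.40 without array 1 and 0.10 without array 3. Lhx9, a LIM homeobox factor needed for the gonad to form, had -0.19, -0.14 and -0.041 on arrays 1, 2 and 3. Its arrays were all negative and all near 0, with a mean of -0.12 ± 0.075 (SD, n = 3; limma adjusted p = 0.716) and a 95% confidence interval from -0.51 to 0.27.

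Of 20 listed regulators of the adrenogonadal primordium and adrenal cortex, 17 were tested, the 3 above among them. Their median was 0.094, 0 passed limma over all genes, and an unadjusted p under 0.05 was held by 6 positive and 2 negative genes, 47.1% of the list against 16.8% of all genes. The count of 8 became 5 without array 1. The positive ones with the smallest p were Wnt4 at 1.84 ± 0.13, Wt1 at 1.84 ± 0.27, Tcf21 at 1.57 ± 0.26 and Cited2 at 0.93 ± 0.067 (mean log2 ratio ± SD, n = 3). Wnt4, Wt1 and Tcf21 also act in the kidney itself, in nephron formation, nephron progenitors and podocytes, and stroma, so their ratios are not signs of neighbouring tissue alone. On the negative side stood Cbx2, a Polycomb protein needed for gonad growth, at -0.94 ± 0.31, and Ctnnb1, the Wnt effector beta-catenin, at -0.75 ± 0.52. Gata4, a factor of the early gonad and of many other organs, had -0.81, -0.17 and 0.28 on arrays 1, 2 and 3, on both sides of 0.

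Genes of the cells that support or surround the germ cells lay on both sides of 0. Of 28 listed genes 25 were tested, with a median of -0.13, and 1 on each side had an unadjusted limma p under 0.05, with 0 past the adjusted threshold. These are 8% of the list, below the 16.8% of all genes, so the list did not stand out by this count. The count of 2 became 4 without array 2 and 5 without array 3. Rspo1, a Wnt enhancer of ovary determination, stood at 0.82 ± 0.26 and Vnn1, a pantetheinase of supporting cells in the testis, at -0.97 ± 0.82. For Vnn1 array 1 had -1.91, against -0.37 on array 2 and -0.65 on array 3. The median of the list was -0.42, -0.041 and 0.064 on arrays 1, 2 and 3, so its side depended on the array.

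**Figure D2:**
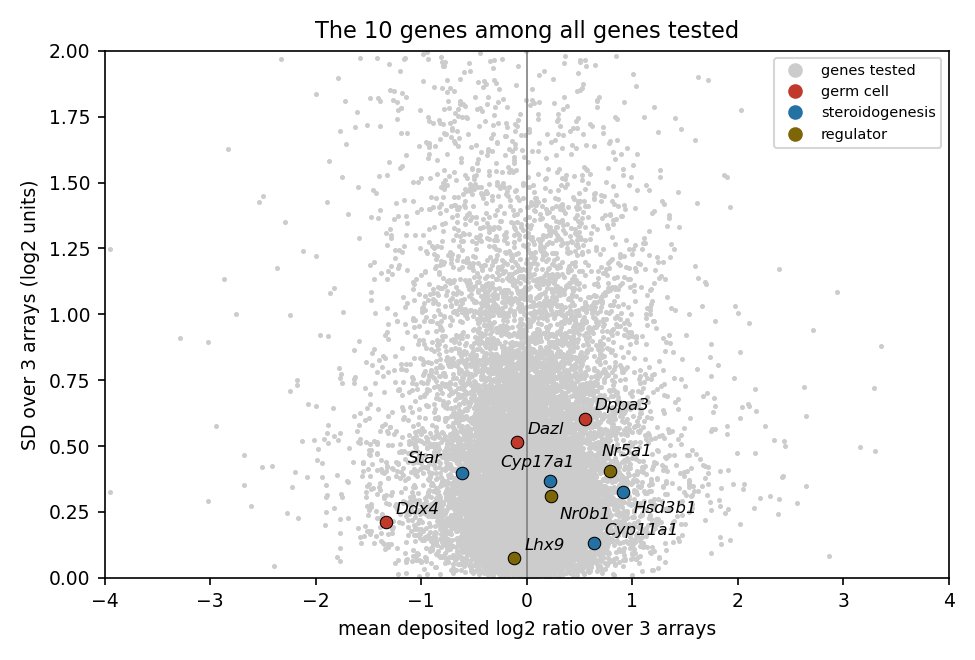
Mean deposited log2 ratio over the 3 arrays (x axis) against the SD over the 3 arrays (y axis, log2 units) for all genes tested (grey) and the 10 genes (coloured by role). 228 genes beyond the axes are not drawn; Ddx4 lies at -1.34 and 0.21, at the negative edge of the grey cloud, while Dazl and Dppa3 lie at SDs of 0.51 and 0.60.

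Of the steroid synthesis genes, Star encodes the carrier that brings cholesterol to the inner mitochondrial membrane, the step that limits the rate. Star had log2 ratios of -0.41, -1.07 and -0.36 on arrays 1, 2 and 3. All 3 arrays were negative, with array 2 farthest from 0. The mean was -0.61 ± 0.40 (SD, n = 3), a 1.53-fold difference, with a 95% confidence interval from -1.18 to -0.051 (limma, unadjusted p = 0.0384, adjusted p = 0.271). Without array 2 the mean was -0.38 and the unadjusted p 0.181.

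Cyp11a1 encodes the side-chain cleavage enzyme, which takes the cholesterol that Star delivers. Arrays 1, 2 and 3 gave it log2 ratios of 0.78, 0.52 and 0.62. All 3 arrays were positive and close together. The mean was 0.64 ± 0.13 (SD, n = 3), a 1.56-fold difference, with a 95% confidence interval from 0.23 to 1.04 (limma, unadjusted p = 0.0109, adjusted p = 0.179). Without array 1 the unadjusted p was 0.0766. The lowest value of Cyp11a1 was 0.52 and the highest of Star -0.36. Genes of opposite sign on every array lie apart by construction, and no share of such pairs over all genes was taken.

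Hsd3b1 encodes a 3-beta-hydroxysteroid dehydrogenase, which turns pregnenolone into progesterone in adrenal and gonad. On arrays 1, 2 and 3 the log2 ratios of Hsd3b1 were 1.03, 0.55 and 1.16. All 3 arrays were positive. The mean was 0.91 ± 0.32 (SD, n = 3), the highest of the 10 genes and a 1.88-fold difference, with a 95% confidence interval from 0.40 to 1.42 (limma, unadjusted p = 0.00678, adjusted p = 0.152). With each array left out in turn its unadjusted limma p ran from 0.0120 to 0.0380.

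RefSeq lists 6 numbered Hsd3b genes on chromosome 3, a family of close relatives, and the oligo sequences were not used here, so signal from a relative in the Hsd3b1 value was not tested. Of the 6, 3 had an oligo under their own symbol. Hsd3b2 stood at 0.20 ± 0.37, with 0.48, 0.35 and -0.22 on arrays 1, 2 and 3, and Hsd3b3 at 0.20 ± 0.29, with 0.48, -0.10 and 0.21 (mean log2 ratio ± SD, n = 3). Both had arrays on either side of 0, and neither had an unadjusted limma p under 0.05. These relatives were chosen for the text after the values of the set were seen.

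The promoters of Hsd3b1 and Cyp11a1 are shown because both genes lay on the positive side on every array, a choice made from the values. Of the other steroid synthesis genes of the set, Star lay on the negative side on every array and Cyp17a1 on both sides of 0. Whether Nr5a1 acts on any of these genes in these tissues was not tested. The Hsd3b1 window is chr3:98859745-98860044 on the minus strand (RefSeq, GRCm38.p6). RefSeq gives more than 1 Cyp11a1 window, and that printed is chr9:57997774-57998073 on the plus strand, the first along the chromosome. Which Cyp11a1 start is used in these tissues was not tested. The sequences are printed as above with CpGs in capitals.
Hsd3b1: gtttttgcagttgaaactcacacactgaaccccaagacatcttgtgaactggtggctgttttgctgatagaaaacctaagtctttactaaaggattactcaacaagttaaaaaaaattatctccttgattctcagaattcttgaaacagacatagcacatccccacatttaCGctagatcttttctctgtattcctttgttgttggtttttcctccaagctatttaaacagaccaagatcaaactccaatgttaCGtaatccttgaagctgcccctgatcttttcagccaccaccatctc
Cyp11a1: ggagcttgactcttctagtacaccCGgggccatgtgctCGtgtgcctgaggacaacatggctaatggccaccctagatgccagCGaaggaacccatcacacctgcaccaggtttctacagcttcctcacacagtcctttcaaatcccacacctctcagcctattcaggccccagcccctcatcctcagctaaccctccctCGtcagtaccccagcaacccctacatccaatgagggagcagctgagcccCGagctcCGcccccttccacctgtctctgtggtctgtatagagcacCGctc
The Hsd3b1 window holds 2 CpGs and the printed Cyp11a1 window 7, against the median of 7 over all promoter windows. A second Cyp11a1 window in RefSeq, chr9:58014702-58015001 on the plus strand, holds 1 CpG. The core of the site that Nr5a1 is known to bind, AAGGTCA, was searched on both strands and found in 4.72% of all windows. It occurs 0 times in these windows and 0 times in those of the other 4 matched genes. Only this exact sequence was searched, so variant sites and sites outside the windows were not looked for. Since most windows lack it, its absence here does not show that these genes lack Nr5a1 sites. In all, 6 of the 10 genes matched the promoter table, and Dppa3, Nr5a1, Star and Cyp17a1 were not among them.

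Cyp17a1 encodes the enzyme that directs steroids towards glucocorticoids in species that use it in the adrenal, and towards androgens in the gonad. The gene had log2 ratios of 0.56, 0.27 and -0.17 on arrays 1, 2 and 3. The arrays lay on both sides of 0, with a mean of 0.22 ± 0.37 (SD, n = 3; limma adjusted p = 0.632), which became 0.051 without array 1 and 0.42 without array 3.

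Of 32 genes listed for steroid synthesis and its supply, 21 were tested, and the median was 0.027. Of these, 0 passed limma over all genes, and 2 on the positive side, Hsd3b1 and Cyp11a1, and 3 on the negative side had an unadjusted p under 0.05, together 23.8% of the list against 16.8% of all genes. The negative ones were Star, Npc1, which exports cholesterol from lysosomes, at -0.57 ± 0.22, and Mrap, a partner of the corticotropin receptor, at -0.52 ± 0.18 (mean log2 ratio ± SD, n = 3). Among the 17 genes of the list outside the set there were thus 0 positive and 2 negative ones, with a median of 0.0013. The count over the whole list was 1 without array 1, 2 without array 2 and 8 with array weights. Fdx1, the ferredoxin that passes electrons to Cyp11a1, stood at 0.38 ± 0.15 and was positive on all 3 arrays (limma, unadjusted p = 0.0631, adjusted p = 0.326). Scarb1, a receptor that takes up cholesterol from lipoproteins, had 0.16, 0.27 and -0.48 on arrays 1, 2 and 3.

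In the order of their means from the highest, the 10 genes ran Hsd3b1, Nr5a1, Cyp11a1, Dppa3, Nr0b1, Cyp17a1, Dazl, Lhx9, Star and Ddx4. For 7 of the 9 neighbouring pairs in this order the ranges of the 3 arrays overlapped. Neighbours in a sorted order lie close by construction, and no share over all genes was taken beside this count. The 2 pairs that did not overlap were Lhx9 and Star, and Star and Ddx4. Star exceeded Ddx4 by 0.72 ± 0.60 (SD of the difference within arrays, n = 3), while the lowest array of Star, at -1.07, stood close to the highest of Ddx4, at -1.11.

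Arrays 1 and 2 gave the same sign for 9 of the 10 genes, against 69.8% of all genes. Arrays 1 and 3 did so for 7, against 57.2%, and arrays 2 and 3 for 8, against 55.7%. Nr0b1 was the gene whose sign differed between arrays 1 and 2. Dazl was negative and Cyp17a1 positive on both of those arrays, and each had the other sign on array 3. Ddx4 was the lowest of the 10 on every array, whereas the highest was Dppa3 on array 1, Nr5a1 on array 2 and Hsd3b1 on array 3.

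**Figure D3:**
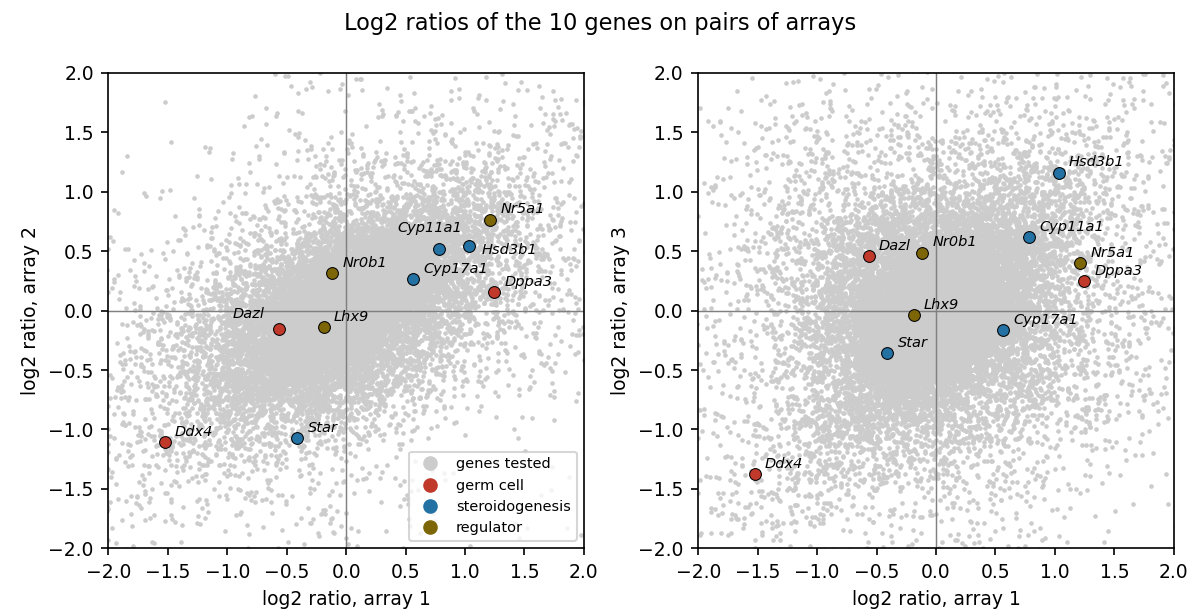
Log2 ratio on array 1 (x axes) against array 2 (left) and array 3 (right) for all genes tested (grey) and the 10 genes (coloured by role); 631 and 756 genes beyond the axes are not drawn. Ddx4 lies in the lower left of both panels, at -1.53 and -1.11 and at -1.53 and -1.38, while Dazl, Nr0b1 and Cyp17a1 lie in quadrants of opposite sign on the right.

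Other tissues that the dissections could hold are described by lists of their markers. The red-cell list was split: 3 of its 6 genes lay far from 0 on the negative side and 3 near 0. Hbb-bh1, an embryonic globin gene, stood at -3.95 ± 0.32, Klf1 at -3.02 ± 0.29 and Alas2 at -1.20 ± 0.24, while Hba-x stood at -0.21 ± 0.15, Hba-a1 at -0.084 ± 0.13 and Hbb-y at -0.062 ± 0.26 (mean log2 ratio ± SD, n = 3). All 6 means were thus negative, a side held by 49.7% of all genes, but Hba-a1 and Hbb-y had arrays on both sides of 0. The list median of -0.70 falls in the gap between these groups of genes, and its array medians were -0.80, -0.57 and -0.81. Of 6 hindgut and gut endoderm genes 4 had a negative mean, a side held by 49.7% of all genes, with a median of -0.25. Cdx2, a hindgut regulator, stood at -1.05 ± 0.74 and the keratin Krt19 at -1.03 ± 0.21. These 2 had an unadjusted limma p under 0.05, 33.3% of the list against 16.8% of all genes. That count became 1 without array 1 and 1 without array 3. The 2 positive means were those of Shh at 0.15 ± 0.22, positive on all 3 arrays, and Cdx1 at 0.024 ± 0.63. All 5 tubule and nephron genes had a positive mean, a side held by 50.3% of all genes, and 3 of them were positive on every array. Those 3 were Cdh16, the cadherin of tubule epithelium, at 3.31 ± 0.48, Wnt4 at 1.84 ± 0.13 and Cdh6 at 0.31 ± 0.21. Pax8 stood at 0.27 ± 0.32, with -0.11 on array 2, and Lhx1 at 0.071 ± 0.99, with -1.07 on array 2. In each of these lists 0 genes passed limma over all genes. The part of other tissues in the values of the 10 genes was not tested.

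Genes of the adrenal medulla, the neural crest derivative inside the adrenal cortex, lay on both sides, with 16 of 22 tested and a median of 0.051. At an unadjusted limma p under 0.05 there were 3 positive and 2 negative genes, 31.2% of the list against 16.8% of all genes, and 0 passed over all genes. Gata3 stood at 1.02 ± 0.11, Gata2 at 0.50 ± 0.11 and Chga, the chromaffin granule protein chromogranin A, at 0.44 ± 0.12. Insm1 and Hand2, factors of sympathoadrenal cells, stood at -0.70 ± 0.017 and -0.64 ± 0.43 (mean log2 ratio ± SD, n = 3). Gata3 is also a gene of the ureteric bud and its parent duct. The count over the list was 2 without array 1 and 3 without array 2.

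Of the Wolffian and Muellerian ducts and the mesonephros, beside which the gonad forms, 18 of 22 genes were tested, with a median of -0.17. At an unadjusted limma p under 0.05 there was 1 on the positive side, Gata3, and 4 on the negative, 27.8% of the list against 16.8% of all genes, and 0 passed over all genes. The negative ones were the posterior Hox gene Hoxd13 at -2.13 ± 0.52, Hoxa9 at -0.92 ± 0.76, the growth factor gene Fgf8 at -0.58 ± 0.21 and Osr1, a factor of the intermediate mesoderm, at -0.57 ± 0.067 (mean log2 ratio ± SD, n = 3). The count was 3 without array 1 and 3 without array 3. Pax8 and Lhx1 of this list also stand in the tubule and nephron list, and the kidney too arises from the intermediate mesoderm. The ratios of this list are therefore not signs of neighbouring tissue alone.

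**Figure D4:**
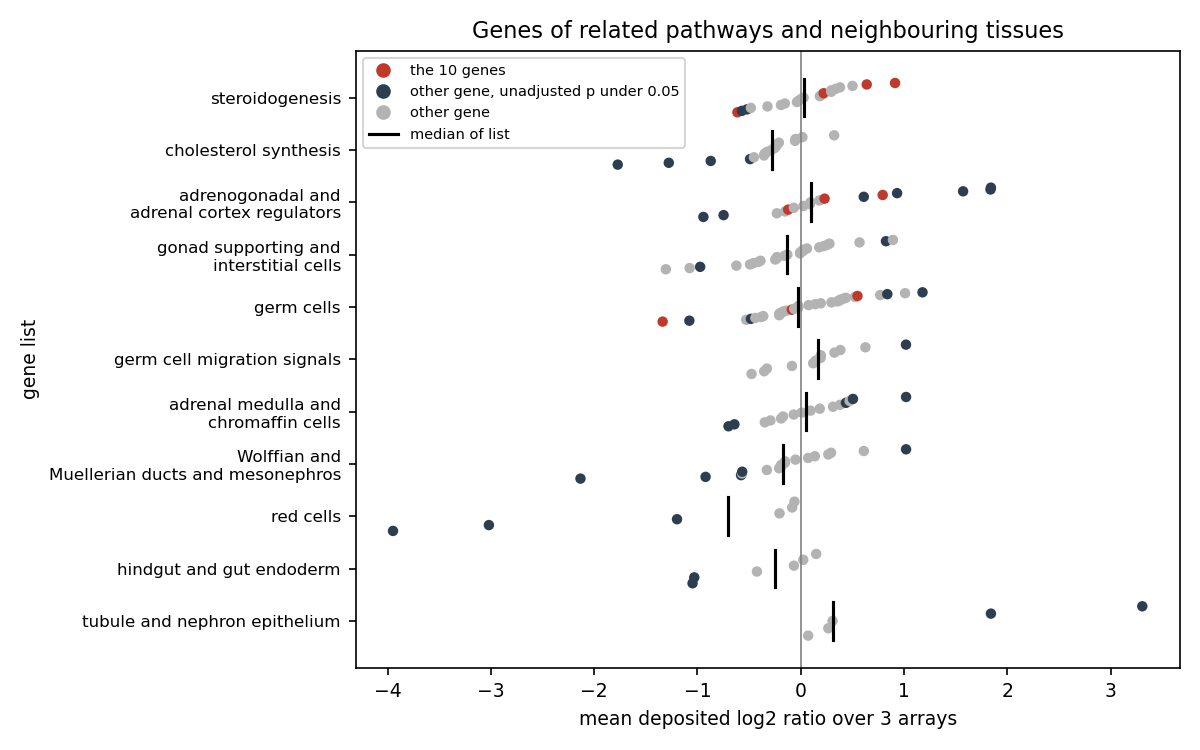
Mean deposited log2 ratio over the 3 arrays (x axis) of every tested gene in each list (rows), with the 10 genes in red, other genes at an unadjusted limma p under 0.05 in dark blue, the rest in grey, and the median of the list as a black bar. List medians lie between -0.70 for red cells and 0.31 for tubule and nephron epithelium, and the 10 genes spread from -1.34 to 0.91.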

How the data were processed

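The values were log2 ratios of the 2 channels of each array, deposited by the authors. Per the labels' protocols, images were read with Imagene 5.5 and normalized in R, by print tip within each array and then across arrays; a lowess fit with a span of 20% is also described, in which control values under 10 became 10. The base was read from the values: raised as powers of 2, at least 99.66% of them on each array fall within 0.01 of a whole number of thousandths, that is, of a 3-decimal ratio. The numerator and a genome build are not given in the sources used here. Centring within arrays hides a shift common to most genes. Intensities of spots, and with them background and saturation, were not examined.

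Of 22702 spots, 883 controls were left out. Oligos with a value on all 3 arrays were averaged by symbol, and those with several or no symbols kept their own identifiers. The 19635 genes were tested against a mean of 0 with limma 3.58.1 in R 4.3.3 (lmFit, then eBayes; two-sided). P-values were adjusted over all genes by Benjamini-Hochberg and called at 0.05. The script was tested on simulated data with 50 changed genes for each size of change. All other genes of the 19635 were left unchanged, and the noise was independent and normal, with variances drawn from the limma prior. The number that passes an adjusted p depends on the share of changed genes, so these rates need not hold for the arrays themselves. In this simulation 0 of 50 genes passed the adjusted p at a log2 change of 1, and 29 of 50 at a change of 2. At an unadjusted p under 0.05 these were 43 and 50. A gene that does not pass the adjusted p is therefore not shown to be unchanged. The 10 genes, the 11 lists and the tests were chosen with earlier results of these data known. The text names all 10 genes and, per list, up to 4 genes a side of smallest p under 0.05 with 1 sign on all arrays, with a few partner genes. Alternatives changed the centring, scaling, array weights, variance prior, oligo choice, arrays required and each array in turn.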

Additional observations from a re-analysis of the deposited data

How the results depend on the processing

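No alternative moved any of the 10 genes past an adjusted limma p of 0.05 (10 alternatives, 0 genes in each). Changing the oligo choice, admitting oligos with several symbols or asking for fewer arrays could not alter the ratios of the 10. Each of them had 1 oligo with a value on all 3 arrays. With 1 array left out 0 of all genes passed, so those fits could not set the 10 apart from other genes. The number of the 10 with an unadjusted p under 0.05 was 5, and 4 with arrays centred and scaled, where Star was no longer among them. It ran from 2 to 5 with 1 array left out: 2 without replicate 1 (Ddx4 and Hsd3b1) and 3 without replicate 2 (those and Cyp11a1). Their median ran from 0.18 to 0.26 with 1 array left out. Dazl reversed to 0.15 without replicate 1, and its range with 1 array left out was -0.36 to 0.15; no other member changed side. Among companion genes the number at an unadjusted p under 0.05 was 35, and 22 to 40 with 1 array left out. Over all genes 1 passed the adjusted p, the gene at the lowest ratio present on every array. With arrays centred and scaled or with any 1 array left out 0 did (0 to 0). At an unadjusted p the 3304 genes became 1686 to 3929 with 1 array left out and 4218 with array weights. Fewer arrays leave fewer degrees of freedom. No paired analysis was possible because the 3 arrays form 1 group and each already sets both tissues against each other.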

Other observations

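Genes of cholesterol synthesis, which makes the substrate of Star and Cyp11a1, lay mostly on the negative side. Of 17 tested, 15 had a negative mean, a side held by 49.7% of all genes, and the median was -0.28, against 0.0020 over all genes. Mvk, which encodes mevalonate kinase, had -1.80, -1.82 and -1.70 on arrays 1, 2 and 3, a mean of -1.77 ± 0.064 (SD, n = 3; limma adjusted p = 0.107). The 3 arrays of Mvk lay close together. Nsdhl and Msmo1, enzymes of the later sterol steps, stood at -0.87 ± 0.48 and -0.49 ± 0.26, and Fdps, which makes farnesyl diphosphate, at -1.28 ± 1.15. For Fdps array 3 had -2.61, against -0.63 on array 1 and -0.60 on array 2. These 4 had an unadjusted limma p under 0.05, 23.5% of the list against 16.8% of all genes, 0 passed over all genes, and the count was 2 without replicate 1 and 2 without replicate 2. The array medians of the list were -0.26, -0.099 and -0.63. The epoxidase gene Sqle, named after its values were seen, was positive on all 3 arrays and stood at 0.32 ± 0.12.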
